A study of Mus musculus with 6 samples.

Results

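The genes described here encode the proteins of the mitochondrial ribosome. They were taken by name: all genes whose symbol in the annotation of the Affymetrix mouse array begins with Mrpl, for the large subunit, or Mrps, for the small subunit, followed by a digit. This gave 76 genes among the 18193 genes measured, 47 of the large and 29 of the small subunit. Mrpl30 and Mrpl53 have only probe sets (groups of short probes read as one value) that the annotation assigns to several genes, so they are not among the 76. The animals were male mice of C57BL/KS (BKS), the control strain, whose titles mark it as wild type, and of New Zealand Obese (NZO), an inbred strain that grows obese and diabetic on ordinary chow. All were 18 weeks old and chow-fed, and whole liver was measured on 3 arrays per strain. The labels name no engineered allele and no drug. The design text calls the mice littermates but does not say which belong together, and the 2 inbred strains differ across the genome, so strain stands for genotype, body weight and metabolic state at once. Nothing in the labels states outright that every array is its own animal, so the p-values below measure the spread between these samples, which may be partly technical.

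The mitochondrial ribosome makes the few inner-membrane proteins of the respiratory chain that mitochondrial DNA still encodes. Its ribosomal RNAs come from mitochondrial DNA, while all of its proteins are encoded in the nucleus, made in the cytosol and imported. Both subunits are needed for translation, and liver is a tissue rich in mitochondria. Values are log2 expression, on which a step of 1 is a doubling. Fold changes are NZO minus BKS, so that a negative value is lower in NZO. The test was limma's moderated test over all 18193 genes, and a gene passed when its Benjamini-Hochberg adjusted p was under 0.05.

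Array medians over all probe sets lay between 5.08 and 5.22, and all 76 genes averaged above the midpoint of the array, between 7.77 and 11.65. The 2 arrays with number 1 in their titles, here replicate 1 of each strain, stood apart in the spiked-in hybridization controls, whose signal does not come from the tissue. These 18 probe sets averaged 9.29 and 8.17 there, against 10.17 to 11.52 on the other 4 arrays. The difference between the 3′ and 5′ probe sets of beta-actin, which grows as RNA or cDNA is truncated, was 1.72 to 2.33 in BKS and 1.29 to 1.39 in NZO, and thus did not overlap between the strains. The same difference for Gapdh was 0.45 to 0.98 in BKS and -0.04 to 0.14 in NZO, again without overlap. All 6 hepatocyte markers, albumin (Alb) among them, read between 12.15 and 14.97, and markers of adipose tissue and skeletal muscle stayed between 3.80 and 6.19.

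No mitochondrial ribosomal protein gene passed the test between the strains. Of the 76, 67 had a lower and 9 a higher mean in NZO, with a median log2 fold change of -0.29, but only 40 and 39 were lower after repeated quantile normalization and cyclic loess, with medians of -0.03 and -0.0099. Below 0 were 88.2% of the members, 55.1% of all genes and 79.5% of the 5152 genes that average 8 or more, a level that 72 of the 76 members reach. Single members ranged from -1.01 (Mrps6) to 0.40 (Mrpl49). None was called by limma, where 0.742% of all genes were (0.324% higher and 0.418% lower in NZO), and adjusted p ran from 0.123 to 0.986. At an unadjusted p below 0.05, 8 members were lower and 0 higher, or 10.5% of them lower against 8.24% of all genes lower and 3.18% higher. Of the genes averaging 8 or more, 15.8% were lower at that p. A variance model with trend and robust estimation also called 0. The median over all genes was -0.03, but it was -0.31 over the genes averaging 8 or more. The list's median thus lay at that of other bright genes. In whole liver, fewer cells of a type and less RNA per cell cannot be told apart.

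**Figure D1:**
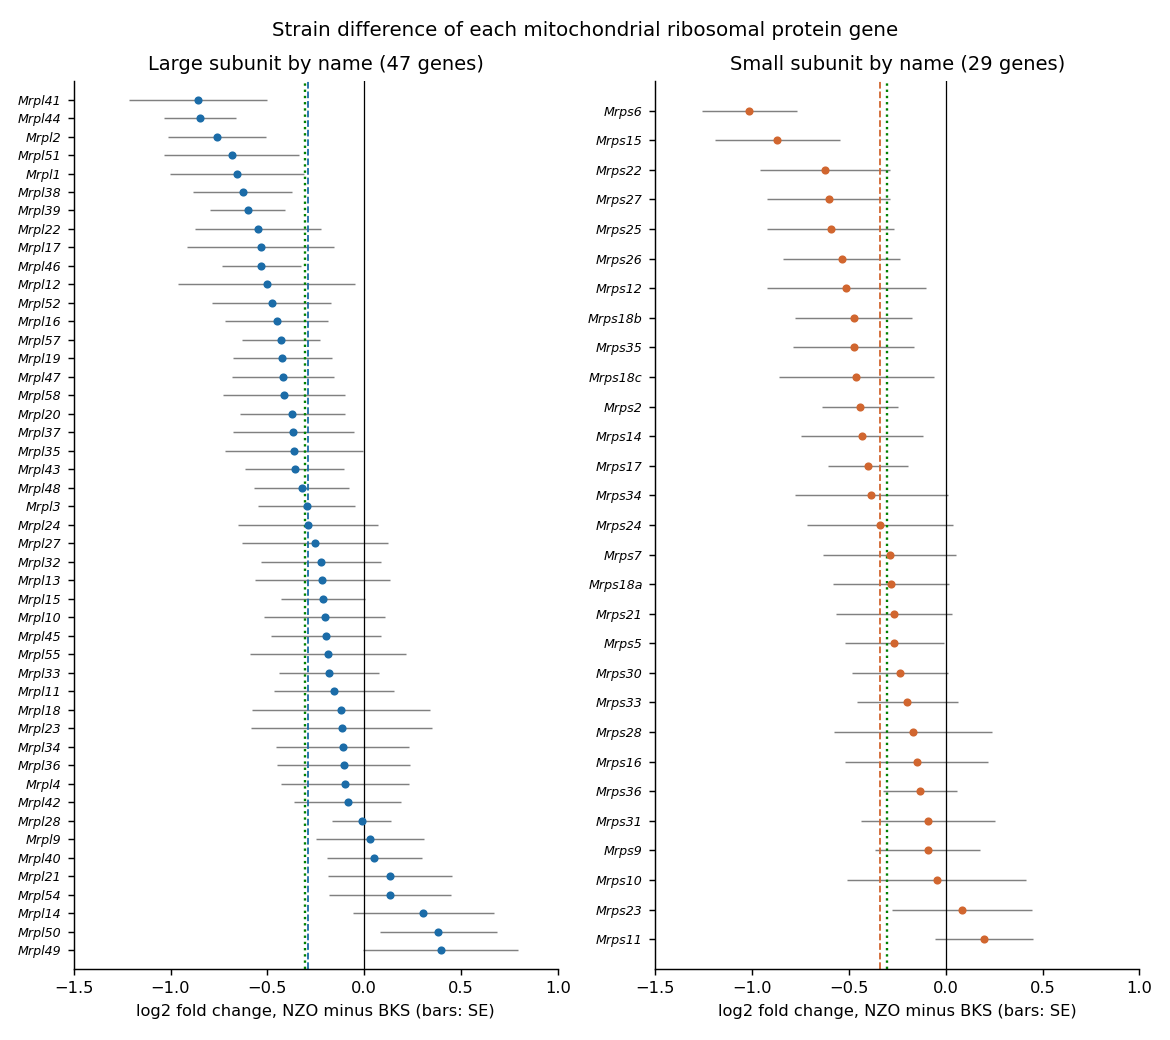
Log2 fold change (NZO minus BKS) of each of the 47 large and 29 small subunit genes, with bars for the standard error of the limma fit over 6 arrays. The dashed line is the subunit's median (-0.29 and -0.34), the dotted green line the median of all genes averaging 8 or more (-0.31). Nearly all points lie left of 0, and the 2 subunits' medians lie on either side of the dotted line.

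The size of the list's shift depended on which arrays entered, most of all on NZO replicate 1. Set against each gene's mean over the BKS arrays, the median member stood at -0.35, 0.19 and 0.15 in BKS replicates 1, 2 and 3, and at -0.89, 0.04 and -0.07 in NZO replicates 1, 2 and 3. NZO replicate 1 was therefore far below the rest, BKS replicate 1 was the next lowest, and the other 4 arrays lay close together with BKS a little above NZO. NZO replicate 1 held the lowest of the 6 values for 63 of 76 members (82.9%), as it did for 79.97% of all genes averaging 8 or more. BKS replicate 1 lay below both other BKS arrays for 68 members (89.5%), against 74.7% of the genes averaging 8 or more. Without NZO replicate 1 the members' median was 0.03, with 36 below 0. Without BKS replicate 1 it was -0.50, with 73 below 0.

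**Figure D2:**
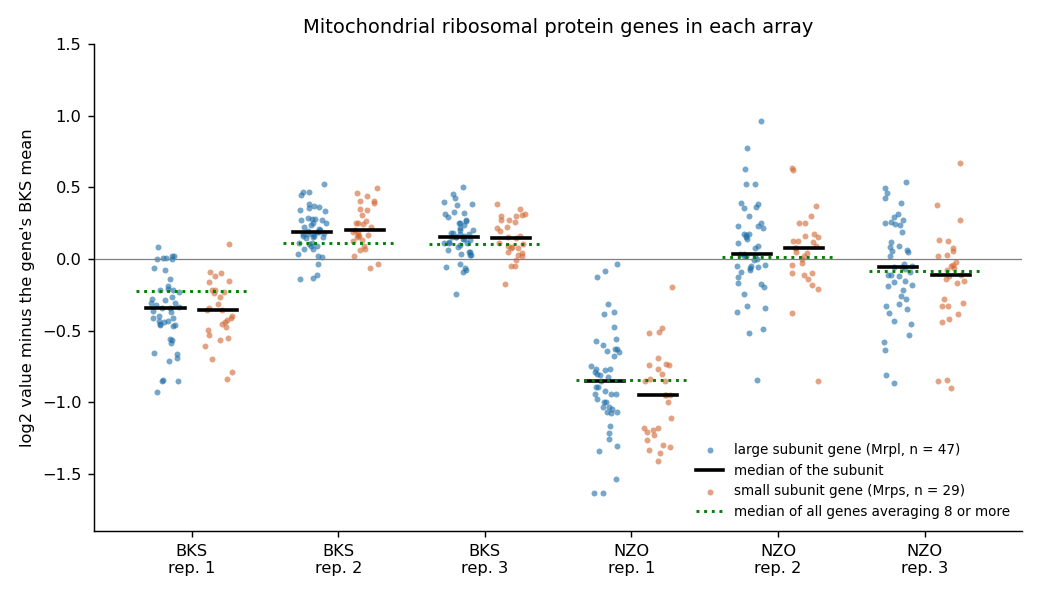
Each point is 1 gene in 1 array, as its log2 value minus the gene's mean over the 3 BKS arrays, in blue for the large and orange for the small subunit. Black bars are the subunit medians and dotted green lines the medians of all genes averaging 8 or more. Both subunits drop together in NZO replicate 1, to -0.85 and -0.95, where the green line lies at -0.85.

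The 2 arrays titled number 1 form a pair with 1 array per strain, and the other 4 arrays compare 2 with 2. Between the number 1 arrays the median member was lower in NZO by 0.56 on the log2 scale, a value with no replicate and no test. Among the other 4 arrays the median was -0.19, against 0.00 over all genes (0.0036) and -0.14 over genes averaging 8 or more, and 57 of 76 members were below 0. In these 4 arrays both NZO values lay below both BKS values for 43 members (56.6%) and above them for 6 (7.89%). The same held for 26.4% and 24.7% of all genes, and for 45.6% and 20.6% of genes averaging 8 or more. A gene was counted as lower in both sets when it was so placed here and also lower in NZO between the number 1 arrays. This held for 40 members (52.6%), against 22.2% of all genes and 43.6% of genes averaging 8 or more. Counted as higher by the same rule were 2, Mrpl49 and Mrpl50, or 2.63% against 12.4% of all genes and 6.77% of genes averaging 8 or more. By mean difference alone, Mrpl14, Mrpl21, Mrps11 and Mrps23 were also above 0 in both sets. The members thus leaned lower by a small amount among these 4 arrays, and whether the lean exceeds that of other bright genes was not tested. The 4 arrays also differed by strain in the control for 18S ribosomal RNA, at 10.46 and 7.91 in BKS against 5.52 and 4.90 in NZO, and in the 3′ to 5′ differences of beta-actin and Gapdh. Over all 6 arrays the strains overlapped in the 18S control, with BKS replicate 1 lowest at 4.51 and NZO replicate 1 at 4.64. The part of these measures in the lean was not tested.

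**Figure D3:**
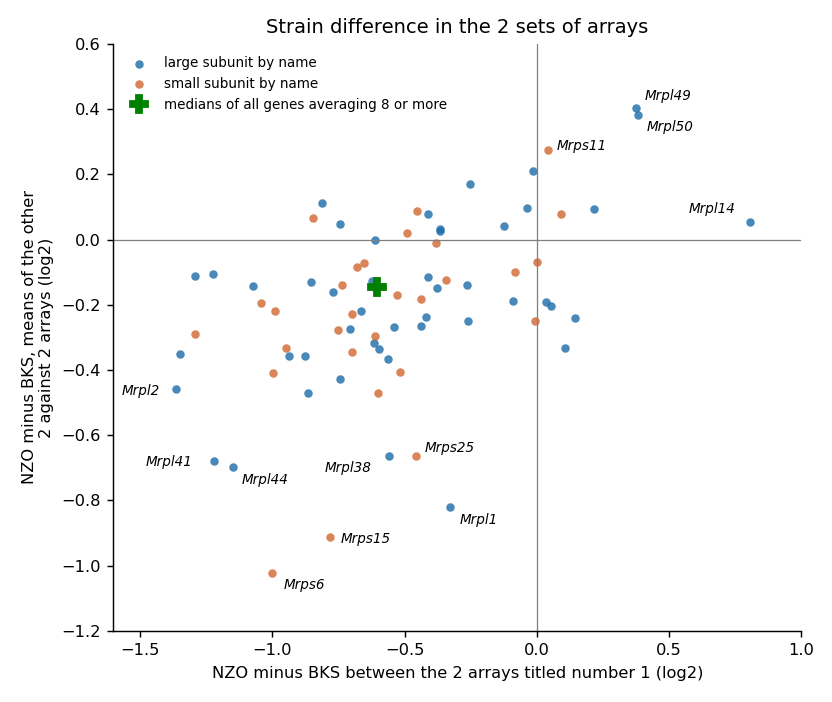
Each point is 1 gene. The horizontal axis is its log2 difference between NZO and BKS replicate 1, the vertical axis the difference between the means of the other 2 NZO and 2 BKS arrays, and the green cross marks the medians of all genes averaging 8 or more (-0.61 and -0.14). Mrps6, Mrps15, Mrpl1, Mrpl44 and Mrpl41 lie lowest on the vertical axis, and Mrpl49 and Mrpl50 lie highest on it. These last 2 lie above 0 on both axes, as do Mrpl14, Mrpl21, Mrps11 and Mrps23.

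With the arrays titled number 1 as a block in the fit, 5 members passed as lower and none as higher. They were Mrps6, Mrps15, Mrpl38, Mrpl41 and Mrpl44. This is 6.58% of the members, against 5.04% of all genes called lower and 1.51% called higher in that fit, and 11.4% of the genes averaging 8 or more, so it says nothing particular about the list. Among the 2 against 2 arrays 1 passed, Mrps6, or 1.32% against 3.02% of all genes called lower and 2.0% called higher. With array weights 3 passed, Mrpl44, Mrps15 and Mrps6, or 3.95% against 4.94% of all genes called lower and 2.19% called higher. Mrps6 was also the only member that differed by more than 1 on the log2 scale with no overlap between strains, as 1.78% of all genes did downwards. The block and the weights were tried with knowledge of how these arrays lie, and the labels do not call the number 1 arrays a batch.

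Mrps6, the counterpart of bacterial protein S6 in the platform of the small subunit, had the largest difference of the 76 genes. It read 9.01, 9.77 and 9.31 in the BKS replicates and 8.01, 8.51 and 8.52 in the NZO replicates. Every NZO array lay below every BKS array, and the gap was as wide between the number 1 arrays (-0.9995) as among the other 4 (-1.02). The means were 9.36 ± 0.38 and 8.35 ± 0.29 (SD, n = 3), which is 2.02-fold lower in NZO (log2 fold change -1.01, standard error 0.25, limma adjusted p = 0.158). With the block the adjusted p was 0.0107, among the 2 against 2 arrays 0.0273 and with array weights 0.0201, while leaving out 1 array gave 0.133 to 0.592. Its value was -0.73 after cyclic loess (adjusted p = 0.0648). The chosen probe set is one whose probes match several transcripts (its ID ends in _s_at), and the second probe set of the gene gave a smaller difference, -0.47.

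Mrps15 binds the ribosomal RNA of the small subunit early in assembly in its bacterial form. Its values were 9.35, 10.29 and 10.06 in BKS and 8.56, 9.53 and 8.997 in NZO. Overlap between the strains arose only because BKS replicate 1 lay under NZO replicate 2. Within each set of arrays NZO was lower, by 0.78 and 0.91. The difference over 6 arrays was -0.87 (standard error 0.32, limma adjusted p = 0.361, and 0.0249 with the block). Its other probe sets gave -0.28 and, from one that averages below 6, 0.38.

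Mrpl44, a large subunit protein with the fold of a double-strand-specific ribonuclease, was the member with the smallest p. It stood at 10.93, 11.01 and 10.60 in BKS and at 9.78, 10.001 and 10.21 in NZO. Again no NZO array reached a BKS array, with means of 10.85 ± 0.22 and 9.997 ± 0.22 (SD, n = 3). The strains differed by -0.85 on the log2 scale (standard error 0.19, limma adjusted p = 0.123, 0.0280 with the block, 0.0904 among the 2 against 2 arrays). Leaving out 1 array gave -0.97 to -0.74, but the value was -0.49 with repeated quantile normalization and -0.53 with cyclic loess (limma adjusted p = 0.380 and 0.345). Its 3 other probe sets disagreed, with -0.77, -0.30 and 0.31.

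Mrpl41 and Mrpl38, mitochondria-specific proteins of the large subunit with no bacterial counterpart, were the other members called with the block. Mrpl41 had 9.93, 10.68 and 10.40 in BKS and 8.70, 9.97 and 9.76 in NZO (log2 fold change -0.86, standard error 0.36, limma adjusted p = 0.424, and 0.0246 with the block). Mrpl38 had 9.40, 9.98 and 10.13 in BKS and 8.84, 9.32 and 9.46 in NZO (-0.63, standard error 0.25, limma adjusted p = 0.405, and 0.0356 with the block). For both genes the BKS number 1 array lay among the NZO values, and within each set of arrays NZO was lower. A second bright probe set of Mrpl41 gave -0.40.

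In 7 members the 3 NZO arrays all lay below the 3 BKS arrays, and in 0 above. These are 9.21% of the members, against 10.9% of all genes below and 6.11% above, and against 18.9% and 2.48% of genes averaging 8 or more. Besides Mrps6 and Mrpl44 they were Mrpl2, Mrpl39, Mrpl46, Mrpl51 and Mrpl16, all of the large subunit. Mrpl2, whose bacterial counterpart lies beside the peptidyl transferase centre, read 10.94, 10.98 and 10.82 in BKS and 9.58, 10.43 and 10.46 in NZO. BKS arrays lay close together (SD 0.08), and NZO replicate 1 lay well under the other NZO arrays (log2 fold change -0.76, standard error 0.26, limma adjusted p = 0.313). Without NZO replicate 1 its difference was -0.47.

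Mrpl39 is a mitochondria-specific protein of the large subunit. It gave 11.88, 12.07 and 11.92 in BKS and 11.01, 11.63 and 11.42 in NZO. Strains stood apart in both sets of arrays, by -0.86 and -0.47, and by -0.60 over all 6 (standard error 0.19, limma adjusted p = 0.291). Its second probe set gave -0.40. Mrpl46 was nearly constant in BKS, with 9.75, 9.84 and 9.85, and lower in NZO, with 8.88, 9.48 and 9.50 (-0.53, standard error 0.20, limma adjusted p = 0.380). Mrpl51 read 10.80, 11.14 and 11.01 in BKS and 9.45, 10.74 and 10.71 in NZO. For Mrpl16 the values were 10.97, 10.93 and 10.99 in BKS and 9.89, 10.79 and 10.85 in NZO. In both, most of the difference sat in NZO replicate 1, and without it the log2 fold changes went from -0.68 to -0.26 and from -0.45 to -0.14.

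**Figure D4:**
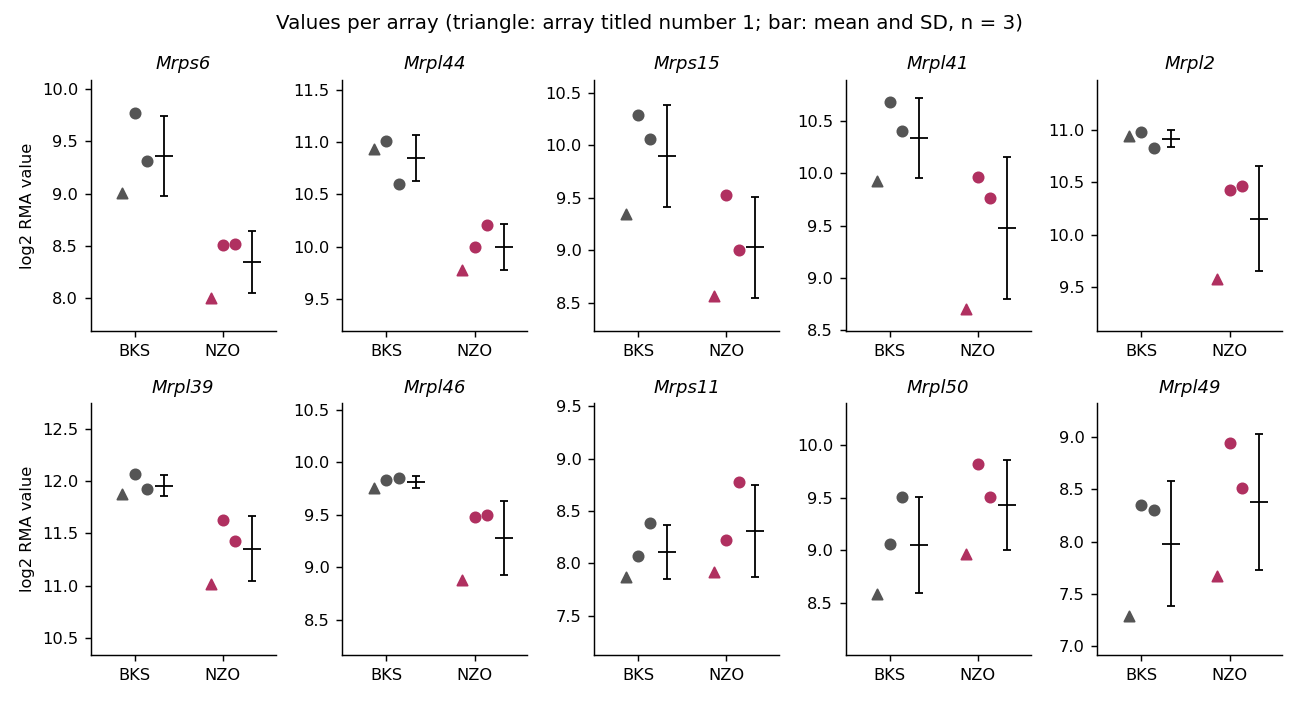
Log2 values of 10 genes in each array, grey for BKS and red for NZO, with triangles for the arrays titled number 1 and bars for the mean and SD of 3 arrays. Each panel spans 2.4 log2 units, so slopes can be compared between panels but levels cannot. In Mrps6, Mrpl44, Mrpl2, Mrpl39 and Mrpl46 no NZO point reaches a BKS point, while in Mrps11, Mrpl50 and Mrpl49 the strains overlap.

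Renormalizing the arrays drew most of these differences toward 0. With cyclic loess Mrps15 was at -0.56, Mrpl41 at -0.54, Mrpl2 at -0.44 and Mrpl51 at -0.36. Mrpl38 was at -0.32, Mrpl39 at -0.27, Mrpl46 at -0.22 and Mrpl16 at -0.12. All of them stayed below 0 there, and none passed the test.

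The members with the highest fold changes did not pass either. Mrpl49 had 7.29, 8.35 and 8.31 in BKS and 7.67, 8.94 and 8.52 in NZO (log2 fold change 0.40, standard error 0.40, limma adjusted p = 0.779). Mrpl50 had 8.58, 9.06 and 9.51 in BKS and 8.96, 9.82 and 9.51 in NZO (0.38, standard error 0.30, limma adjusted p = 0.706). Both are mitochondria-specific proteins of the large subunit, and both were higher in NZO within each set of arrays although the strains overlapped over all 6. Their second probe sets gave 0.18 for Mrpl49 and -0.30 for Mrpl50, so the direction held in Mrpl49 and not in Mrpl50. With cyclic loess the chosen probe sets stood higher, at 0.63 for Mrpl49 and 0.68 for Mrpl50. Mrpl14, which faces the small subunit in the assembled ribosome, read 8.98, 10.16 and 10.33 in BKS and 9.79, 10.35 and 10.25 in NZO. BKS replicate 1 was the lowest array. The mean difference was 0.30 over all 6 arrays, 0.62 with cyclic loess and 0.05 among the other 4 arrays.

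Within the small subunit the next lowest after Mrps6 and Mrps15 were Mrps22 (-0.62), Mrps27 (-0.60), Mrps25 (-0.59) and Mrps26 (-0.54), with limma's adjusted p between 0.537 and 0.570. Mrps22, mutated in inherited defects of the respiratory chain, read 9.96, 10.24 and 10.03 in BKS and 8.67, 10.03 and 9.66 in NZO, and 1 NZO array lay inside the BKS range. Mrps27 belongs to a family of RNA-binding proteins with pentatricopeptide repeats. It read 7.76, 8.16 and 8.29 in BKS and 6.76, 7.89 and 7.74 in NZO. Mrps25 went from 7.63, 8.53 and 8.21 to 7.17, 8.14 and 7.27. Mrps26 went from 8.60, 9.01 and 8.87 to 7.65, 8.83 and 8.39. NZO replicate 1 was the lowest array in all 4 genes, and the strains overlapped in each. Mrps2, with the third smallest p of its subunit, had a log2 fold change of -0.44 (standard error 0.20, limma adjusted p = 0.455), and its second probe set gave the opposite, 0.57. At the upper end stood Mrps11 (0.20), Mrps23 (0.08) and Mrps10 (-0.05), with limma's adjusted p between 0.841 and 0.984, and Mrps10 was above 0 after cyclic loess (0.27). Cyclic loess put Mrps22 at -0.31, Mrps26 at -0.27 and Mrps2 at -0.13. In the large subunit Mrpl1 was at -0.66 (standard error 0.34, limma adjusted p = 0.537), and among the 2 against 2 arrays at -0.82. Its values of 7.61, 8.72 and 8.47 in BKS overlapped those of 7.29, 8.14 and 7.40 in NZO. With cyclic loess it was at -0.45. A second probe set of Mrpl1, nearly as bright, gave a smaller difference of -0.12, and -0.22 among the 2 against 2 arrays.

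Large and small subunit genes moved together across the arrays. By log2 fold change, the median was -0.29 for the 47 Mrpl genes (40 below 0) and -0.34 for the 29 Mrps genes (27 below 0), and after repeated quantile normalization and cyclic loess 0.0030 and 0.04 for the large and -0.06 and -0.03 for the small subunit. Per array, the median of the large minus that of the small subunit was 0.010, -0.012 and 0.0042 in BKS replicates 1 to 3 and 0.096, -0.040 and 0.053 in NZO replicates 1 to 3. The strain means of this measure differed by 0.04, less than the 0.05 by which replicates of a strain varied (SD). Without BKS replicate 1 they differed by 0.085, more than that SD, and without NZO replicate 1 by 0.0058. Since it is a score over chosen genes it was given no p. Names and places do not match for a few members. Mrps18a and Mrps30 sit in the large subunit, and Mrps36 is better known as part of the 2-oxoglutarate dehydrogenase complex. Moved accordingly, the medians were -0.28 over 49 large and -0.39 over 26 small subunit genes.

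These members of uncertain place differed less than most. Mrps18a read 8.97, 9.31 and 9.43 in BKS and 8.29, 9.40 and 9.17 in NZO (log2 fold change -0.28, limma adjusted p = 0.795). Mrps30 read 9.41, 9.37 and 9.14 in BKS and 8.57, 9.48 and 9.16 in NZO (-0.24, limma adjusted p = 0.787). In both only NZO replicate 1 lay outside the range of the BKS arrays on the low side. Mrps36 was at -0.13 (limma adjusted p = 0.859). After cyclic loess all 3 lay above 0, at 0.013, 0.06 and 0.15. Mrps18a has 2 paralogs that remain in the small subunit, Mrps18b at -0.48 (standard error 0.30, limma adjusted p = 0.622) and Mrps18c at -0.46 (standard error 0.40, limma adjusted p = 0.733). These paralogs were at -0.16 and -0.15 after cyclic loess.

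The members were also divided into proteins with a bacterial counterpart and those found only in mitochondria, by medians of the log2 fold change. In the large subunit by structure these were -0.22 over 28 genes with a counterpart and -0.36 over 21 without. In the small subunit they were -0.31 over 16 and -0.48 over 10. The genes called with the block fell in both classes, 2 of 16 (12.5%) in the first class of the small subunit and 3 of 21 (14.3%) in the second class of the large. None of the 28 large subunit genes with a counterpart and none of the 10 small subunit genes without one was called. In that fit 5.04% of all genes and 11.4% of genes averaging 8 or more were called lower. Differences between these classes were not tested, since the genes of a class are not replicates.

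Other genes of mitochondrial translation were looked at by role in 5 lists of 82 entries. Of these entries 4 were not measured, and 77 genes outside the 76 members remained, with none past the test. The medians of the lists were -0.05 over 5 genes listed as ribosomal proteins with other names, -0.14 over 14 translation factors, -0.15 over 21 aminoacyl-tRNA synthetases, -0.24 over 28 ribosome assembly and rRNA modification factors, and -0.30 over 9 genes of mitochondrial DNA transcription and upkeep. Over all 77, 59 were below 0 and the median was -0.22. These lists hold more dim genes than the ribosomal proteins, with 45 of 77 averaging 8 or more. At an unadjusted p below 0.05, 7 were lower (9.09%, against 8.24% of all genes) and 1 higher (against 3.18% of all genes). With the block 6 passed as lower (7.79%, against 5.04% of all genes) and none as higher. Of the genes averaging 6 or more, as 70 of the 77 do, 14.1% were lower at that unadjusted p and 9.0% passed as lower with the block. Among the 2 against 2 arrays 3 passed as lower (3.90%, against 3.02% of all genes) and 1 as higher (against 2.0%).

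Among the assembly factors, Fastkd2, which binds the ribosomal RNA of the large subunit, read 8.36, 9.14 and 8.70 in BKS and 7.08, 8.23 and 7.56 in NZO. All NZO arrays lay below all BKS arrays (log2 fold change -1.11, standard error 0.33, limma adjusted p = 0.241, and 0.0201 with the block). Rbfa, a maturation factor of the small subunit, read 9.38, 9.95 and 10.06 in BKS and 8.31, 9.18 and 8.91 in NZO, again without overlap (-0.99, standard error 0.28, limma adjusted p = 0.220, and 0.00789 with the block). Both thus differed about as much as Mrps6. Polrmt, the RNA polymerase that transcribes mitochondrial DNA, was at -0.80 (limma adjusted p = 0.200, and 0.0356 with the block) and Tefm, its elongation factor, at -0.44. Mtif3, an initiation factor, was at -0.75 (limma adjusted p = 0.507, and 0.0245 with the block) and Mtif2, another, at -0.57. Gatb, needed to charge the glutamine tRNA, was at -0.74 (limma adjusted p = 0.511, and 0.0209 with the block), and Qrsl1 of the same enzyme at -0.42. In the same list Sars2, with the smallest p after Qrsl1, went the other way, at 0.36 (limma adjusted p = 0.439). All its NZO arrays lay above all its BKS arrays. Gadd45gip1, a large subunit protein under another name, was at -0.88 (limma adjusted p = 0.595, and 0.0140 with the block). Lactb, at -0.48, stands in the same list, although it is a filament-forming protein of the intermembrane space and not a part of the ribosome.

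**Figure D5:**
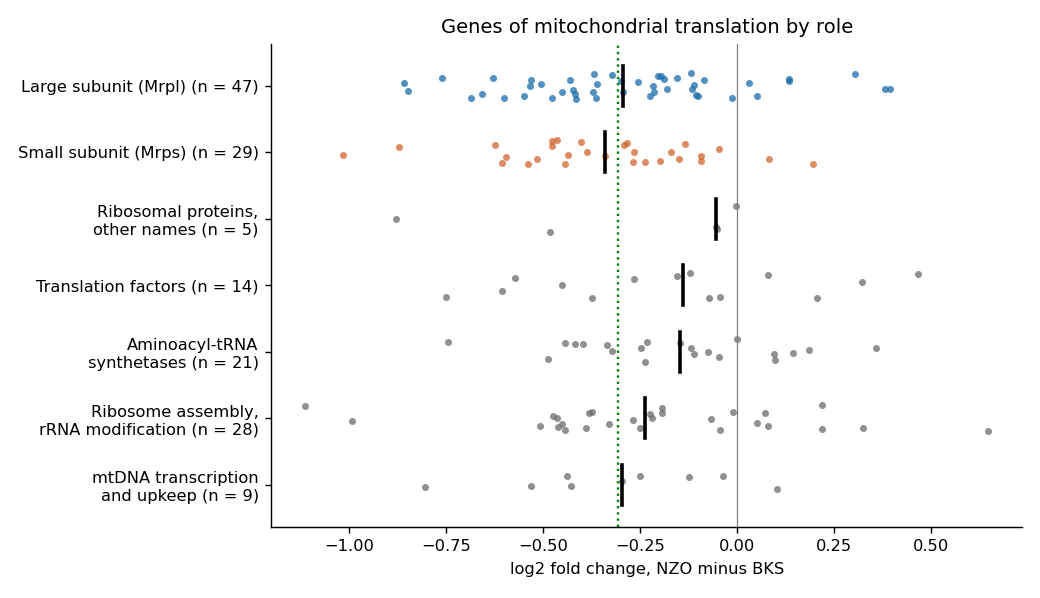
Log2 fold change (NZO minus BKS) of single genes of mitochondrial translation in 7 groups by role, with black bars for the group medians and the dotted green line for the median of all genes averaging 8 or more (-0.31). Both subunits lie around the green line, and single genes such as Fastkd2 (-1.11), Mrps6 (-1.01) and Rbfa (-0.99) lie farthest to the left. The group of ribosomal proteins with other names includes Lactb, which is not a part of the ribosome.

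One gene encoded in mitochondrial DNA itself, and so translated by this ribosome, was looked at, the complex I subunit ND5. It read 13.97, 13.98 and 13.98 in BKS and 13.03, 14.31 and 14.17 in NZO. NZO replicate 1 was low as for the ribosomal proteins, while the other 2 NZO arrays lay above all BKS arrays (log2 fold change -0.14, limma adjusted p = 0.920). Without the number 1 arrays its difference was 0.25 (limma adjusted p = 0.423). The 44 genes of complex I named Nduf, encoded in the nucleus, had a median of -0.39 with 39 below 0, and 46 cytosolic ribosomal protein genes one of -0.35 with 41 below 0. Among the 2 against 2 arrays these medians were -0.18 and -0.05, beside -0.19 for the mitochondrial ribosomal proteins.

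Markers of other liver cells were compared as summed log2 levels. The 5 endothelial markers summed to 32.2 to 33.7 in BKS and 33.8 to 37.4 in NZO, so all NZO arrays lay above all BKS arrays. Singly, only 2 of them, Stab2 and Pecam1, did not overlap between the strains, and none of the 5 passed the test (limma adjusted p = 0.132 to 0.739). Kupffer cell markers (5) summed to 37.2 to 41.8 in BKS and 37.6 to 41.4 in NZO, and stellate cell markers (5) to 35.8 to 40.1 and 37.2 to 39.6. Cholangiocyte markers (4 of 5 measured) reached 23.7 to 24.1 and 23.7 to 25.96, and lymphocyte markers (4 of 5 measured) 22.7 to 23.7 and 22.9 to 24.2. The hepatocyte sum was 85.8 to 86.4 in BKS and 80.7 to 86.6 in NZO, with NZO replicate 1 lowest. The part of endothelial content, of hepatocyte signal and of beta-actin truncation in the members' values was not tested.

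The promoters of the members were compared in windows of 300 bases, 250 before and 50 from the transcription start on, from RefSeq on GRCm38.p6. Of the 76 genes 67 had a window, and where a gene had several the first listed was used. Genes of mitochondrial function often carry sites for the factors NRF1, GABP (an ETS factor, also called NRF2) and YY1. The letters searched on both strands were GCGCA and GCGC with any 1 base between them for NRF1, CCGGAAG for ETS and AAGATGGC for YY1. NRF1 letters were in 12 of 67 windows (17.9%, against 7.98% of 14368 windows of genes on the array and 4.78% of all 27025). ETS letters were in 24 (35.8%, against 13.8% and 9.12%) and YY1 letters in 12 (17.9%, against 3.71% and 2.88%). In all, 40 of 67 held at least 1 of the 3, against 22.8% of the genes on the array. Median log2 fold changes with and without the letters were -0.35 and -0.30 for NRF1, -0.39 and -0.29 for ETS, and -0.29 and -0.32 for YY1. A match is a description of the letters, not a bound site.

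The windows printed here belong to members at both ends of the range, 5′ to 3′ on the gene's strand, with motif matches in capitals. Mrps6, with the largest difference, lies on the plus strand at chr16:92058086-92058385, and none of the 3 motifs is in its letters. Mrpl44 (plus strand, chr1:79775768-79776067) and Mrpl39 (minus strand, chr16:84735195-84735494) each hold an NRF1 match, and both were lower in all NZO arrays. Mrpl14 (plus strand, chr17:45686099-45686398), among the highest, holds one too. Mrpl51 (plus strand, chr6:125191950-125192249) has an ETS match.
Mrps6: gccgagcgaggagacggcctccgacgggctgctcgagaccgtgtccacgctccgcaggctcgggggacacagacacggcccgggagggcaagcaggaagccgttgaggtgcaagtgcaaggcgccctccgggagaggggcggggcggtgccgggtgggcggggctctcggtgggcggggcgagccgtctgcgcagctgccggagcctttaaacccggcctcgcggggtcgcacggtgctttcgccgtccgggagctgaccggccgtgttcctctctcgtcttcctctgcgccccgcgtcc
Mrpl44: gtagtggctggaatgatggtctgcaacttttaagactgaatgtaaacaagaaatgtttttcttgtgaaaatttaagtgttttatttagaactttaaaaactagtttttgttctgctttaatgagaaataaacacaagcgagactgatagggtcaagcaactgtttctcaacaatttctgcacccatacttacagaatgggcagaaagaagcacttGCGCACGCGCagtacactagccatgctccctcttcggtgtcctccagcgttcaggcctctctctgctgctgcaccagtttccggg
Mrpl39: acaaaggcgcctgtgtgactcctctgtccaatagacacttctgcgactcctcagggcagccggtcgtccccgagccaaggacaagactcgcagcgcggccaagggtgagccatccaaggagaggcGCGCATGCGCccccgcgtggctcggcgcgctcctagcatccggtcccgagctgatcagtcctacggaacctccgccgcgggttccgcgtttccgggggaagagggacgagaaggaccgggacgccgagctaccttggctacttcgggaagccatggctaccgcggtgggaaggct
Mrpl14: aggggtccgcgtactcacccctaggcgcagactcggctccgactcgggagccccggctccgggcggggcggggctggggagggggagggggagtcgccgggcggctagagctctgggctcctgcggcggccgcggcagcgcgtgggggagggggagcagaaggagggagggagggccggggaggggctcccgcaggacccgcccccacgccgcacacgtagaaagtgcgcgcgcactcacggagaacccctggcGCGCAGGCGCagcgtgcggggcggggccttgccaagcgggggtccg
Mrpl51: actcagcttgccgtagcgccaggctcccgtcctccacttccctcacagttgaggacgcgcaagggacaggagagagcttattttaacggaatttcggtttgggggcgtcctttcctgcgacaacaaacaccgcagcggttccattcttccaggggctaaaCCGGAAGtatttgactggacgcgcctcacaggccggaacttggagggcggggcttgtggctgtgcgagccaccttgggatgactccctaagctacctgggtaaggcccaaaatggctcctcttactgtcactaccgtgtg

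Many members share their promoter region with a gene on the opposite strand. Such a head-to-head neighbour, with overlapping windows and transcription running apart, was found for 22 of 67 members (32.8%), against 14.1% of genes on the array. In all 22 cases the neighbour was measured too. Mrpl46 of the large and Mrps11 of the small subunit are each other's neighbour, with 42 bases between their starts, so there were 21 pairs. Mrpl46 was lower in all NZO arrays (-0.53), while Mrps11 had a log2 fold change of 0.20 with 7.88, 8.08 and 8.38 in BKS and 7.92, 8.23 and 8.78 in NZO. Mrpl46 minus Mrps11 stood at 1.88, 1.76 and 1.47 in BKS, against 0.96, 1.25 and 0.72 in NZO. The arrays of the 2 strains did not overlap in this difference, whose change of -0.73 gave an exact two-sided permutation p of 0.1, the smallest that 3 against 3 arrays allow. A shift common to all genes of an array cancels in such a difference, but one that varies with brightness need not. In NZO replicate 1 the median gene stood at -0.15 over all genes and -0.85 over genes averaging 8 or more, against the BKS mean. Mrpl46 averaged 9.55 and Mrps11 8.21, and the part of such a shift in their difference was not tested. Of the 21 pairs 6 did not overlap in their difference, or 28.6%, against 20.8% of the 754 head-to-head pairs measured on the array, and this one was singled out after its values were seen. The windows of Mrpl46 (minus strand, chr7:78783040-78783339) and Mrps11 (plus strand, chr7:78782881-78783180) are printed to show the shared stretch, which is not marked. Capitals in the second window are a YY1 match that lies outside the shared stretch.
Mrpl46: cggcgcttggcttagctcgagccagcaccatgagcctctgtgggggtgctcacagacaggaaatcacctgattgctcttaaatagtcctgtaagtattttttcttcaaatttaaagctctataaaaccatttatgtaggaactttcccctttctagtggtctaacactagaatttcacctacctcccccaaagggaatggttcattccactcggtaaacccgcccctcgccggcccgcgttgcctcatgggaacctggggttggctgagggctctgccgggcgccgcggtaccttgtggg
Mrps11: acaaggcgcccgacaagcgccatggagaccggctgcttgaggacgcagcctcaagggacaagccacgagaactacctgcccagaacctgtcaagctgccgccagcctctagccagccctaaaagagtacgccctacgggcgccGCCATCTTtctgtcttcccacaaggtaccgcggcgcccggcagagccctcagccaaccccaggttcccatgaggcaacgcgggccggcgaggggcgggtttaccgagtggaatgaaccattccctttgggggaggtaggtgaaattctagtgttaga

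Probe sets of one gene did not always agree. Of the members 42 have more than 1 probe set, and among the 80 others 39 averaged 6 or more. Of these 39, 25 had the sign of the chosen probe set and 14 the opposite. The strains also differ in sequence, and on this array a base difference under a probe and a difference in transcript level cannot be told apart.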

How the data were processed

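Liver RNA of male mice was hybridized to 6 arrays, 3 labelled BKS and 3 NZO. The authors deposited log2 values for each probe set. The submitters' processing notes name RMA, a method of background correction, quantile normalization and summary of probes, and Affymetrix Expression Console. The deposited values still did not follow a common distribution, as their maxima show. Quantile normalization is called repeated here only because these notes name it. Versions, and whether other arrays were normalized with these 6, are not given in the sources used here. No detection calls were used, and precision is limited by having 3 arrays per strain. Arrays were grouped by their strain label, and replicate numbers are names in accession order.

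Of 45101 probe sets, 34945 had 1 gene symbol in the platform annotation, 932 had several, 9160 had none listed and 64 were controls. For each of 18193 genes the single-symbol probe set of highest average was kept. The strain comparison used lmFit and eBayes of limma 3.58.1 under R 4.3.3, two-sided and without covariates, with Benjamini-Hochberg adjustment over all genes. The fit was tested on simulated data. The 27 named members were taken by rule from this fit, whether or not they passed: in each subunit, the 6 lowest and 3 highest fold changes and the 3 smallest p, those without overlap between strains, and 5 members with a misleading name or paralog. In each pathway list the 2 genes with the smallest p are named. Those called with the block were added after seeing the values. Alternatives changed normalization, filters on dim genes (means of 6 or 8), probe set choice, the variance model, the weights of arrays and which arrays entered. Members, lists and tests were chosen with earlier results of these data known, and the filter at 8, the counts over both sets of arrays and the neighbour differences with their share over the array were added after seeing the values. Figures were drawn with matplotlib 3.10.9.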

Additional observations from a re-analysis of the deposited data

How the results depend on the processing

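No member passed the test in the 6-array fit, nor after repeated quantile normalization or cyclic loess of the gene values, with either filter on dim genes, with other probe sets, with trend and robust estimation, or with any single array left out. The block gave 5 members, the 2 against 2 arrays 1, array weights 3, and a difference past 1 without overlap 1 (Mrps6). Among other genes of mitochondrial translation the counts were 1 and 1 with repeated quantile normalization and cyclic loess, 6 with the block, 4 with 2 against 2 arrays and 5 with array weights, against 0 in the 6-array fit and 0 with any 1 array left out. Over all genes, 135 became 422, 409, 1192, 912, 281 (trend and robust) and 1298 under the same settings, and 27 to 258 with 1 array left out.

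The members' median of -0.29 was -0.03 with repeated quantile normalization and -0.0099 with cyclic loess, where 40 and 39 of 76 were below 0. It was -0.21 with the mean of all probe sets and -0.22 with probe sets without a shared-sequence ending. With 1 array left out it ran from -0.50 to 0.03, for the large subunit from -0.48 to 0.04 and for the small from -0.55 to 0.01. The large subunit's median was above 0 with quantile normalization (0.0030) and cyclic loess (0.04). Large minus small ran from 0.0058 to 0.085 with 1 array left out. Of 76 members, 30 were lower and 2 higher in NZO in all 17 settings where they were measured, and 44 changed sign in at least 1. The same count was not made over all genes or over other bright genes, so it says nothing particular about the list. No paired analysis was possible because the titles of the 2 strains share only number 1, and the replicate numbers used here are names. The number of arrays and the low NZO replicate 1 limit what the comparison can show.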

Other observations

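Probe sets that the annotation assigns to several genes were left out of the list. They include 2 ribosomal protein genes not among the 76, Mrpl30 and Mrpl53, and a further probe set of Mrps34. The 2 probe sets shared by Mrpl30 and the predicted gene Gm6238 gave log2 fold changes of -0.27 and -0.50, and the brighter one read 11.66, 11.82 and 11.70 in BKS and 10.71, 11.89 and 11.77 in NZO. A probe set of Mrpl53 and Ccdc142 gave -0.46, with 9.88, 10.38 and 10.29 in BKS and 9.35, 9.89 and 9.91 in NZO. Another, shared by Mrps34 and Nme3, also gave -0.46, beside -0.39 from the probe set of Mrps34 alone. As in most members, NZO replicate 1 was the lowest array in these probe sets.

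Mettl15, which modifies the ribosomal RNA of the small subunit, had the highest value of the 28 assembly factors, 7 of which were above 0. It was higher by 0.65 over all 6 arrays (standard error 0.20, limma adjusted p = 0.266). Without the number 1 arrays the difference was 0.92 (limma adjusted p = 0.0201). Sars2, the seryl-tRNA synthetase, is the head-to-head neighbour of Mrps12 and was at 0.36 (limma adjusted p = 0.439) against -0.51 for Mrps12 (adjusted p = 0.711). Mrps12 minus Sars2 overlapped between the strains and its change of -0.87 gave an exact permutation p of 0.3. Sars2 is named by the rule for the pathway lists, while Mettl15, Mrps12 and this pair were picked after their values were seen.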
